A study of Mus musculus with 12 samples.

Results

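Genes of glycolysis and of the hypoxia response were examined in mouse fibroblasts of the immortalised NIH3T3 line after silencing of UBF. UBF, the product of Ubtf, is a nucleolar protein through which RNA polymerase I transcribes the ribosomal RNA genes. The list held 36 genes, of which 33 were measured among 19938 genes with a value. It was drawn up by name and role: carriers of glucose and lactate, enzymes of glycolysis, kinases and phosphatases that set its rate, the oxygen sensor, and targets of hypoxia-inducible factor (HIF) outside glycolysis. Gpi1 and Eno1 had no probe set of their own in the annotation table used, and the 25 probe sets that name Gapdh each name other genes as well, so these 3 enzymes were not analysed here.

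RNA was hybridised to 12 Affymetrix arrays, 3 for each of 4 groups. Mock cells received the transfection reagent without siRNA, sirEGFP cells an siRNA named for EGFP as control, and the remaining cells 1 of 2 independent UBF siRNAs, called oligo 1 and oligo 2. Each siRNA was given at 40 nM, RNA was taken after 48 h in all groups, and all cells grew in the same serum-containing medium. Oxygen supply is not among the labelled treatments, and all groups come from a single cell line. The design text calls the 3 arrays of a group biological replicates.

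Glycolysis splits glucose into pyruvate, which lactate dehydrogenase can turn into lactate for export by monocarboxylate carriers. HIF is a pair of proteins whose alpha subunit, such as the Hif1a product, is hydroxylated by the Egln enzymes when oxygen is present and is then degraded. When oxygen is short the alpha subunit persists, enters the nucleus and raises transcription of most glycolytic enzymes as well as genes of blood vessel growth, mitophagy and collagen hydroxylation. In fibroblasts the same genes also respond to growth factors and to nutrient supply.

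HIF binds a short core, ACGTG or GCGTG, and the promoters of the pair of listed genes that fell against sirEGFP are shown for that reason. The windows are 250 bases upstream of the start of transcription in RefSeq (GRCm38.p6), both on the minus strand, at chr7:138909507-138909756 for Bnip3 and chr9:121857797-121858046 for Higd1a. Capitals mark the core on either strand, so that CACGT and CACGC are its reverse complements, and matches may overlap.
Bnip3: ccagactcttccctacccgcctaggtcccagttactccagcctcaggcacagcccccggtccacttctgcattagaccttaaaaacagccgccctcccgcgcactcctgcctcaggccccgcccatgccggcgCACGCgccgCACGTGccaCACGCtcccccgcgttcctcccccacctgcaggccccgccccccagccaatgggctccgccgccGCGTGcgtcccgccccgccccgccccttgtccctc
Higd1a: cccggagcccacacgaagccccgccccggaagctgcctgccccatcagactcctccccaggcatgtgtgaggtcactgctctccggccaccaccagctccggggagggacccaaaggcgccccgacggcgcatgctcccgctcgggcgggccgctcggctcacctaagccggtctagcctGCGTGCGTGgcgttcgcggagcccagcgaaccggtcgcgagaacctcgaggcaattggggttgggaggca
The Bnip3 window holds 5 cores and the Higd1a window 2. A core stood in 34 of the 43 windows of the listed genes (79.1%), in 14 of 19 windows of the enzymes (73.7%) and in 11 of 14 windows of the other HIF targets (78.6%), against 38.6% of all 32851 windows. The windows of the listed genes were also richer in CG, a pair of letters that both forms of the core contain: the median was 16 CG pairs per window against 6 in all windows. At least 1 window with a core was found for 29 of the 30 listed genes that had a window, so its presence did not separate Bnip3 and Higd1a from the genes that did not pass the test.

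Values are log2 expression values as deposited, 1 probe set per gene, and a change was called at an adjusted p under 0.05 (limma, Benjamini-Hochberg over all 19938 genes). Array medians lay between 5.38 and 5.54, and arrays of a group correlated at 0.980 to 0.994. Ubtf was lower on each of the 6 knockdown arrays (7.49 to 8.0) than on any of the 6 control arrays (8.04 to 8.68). Its fall passed the limma test against Mock with oligo 1 (-0.74 ± 0.17 SE, adjusted p = 0.0252) and oligo 2 (-0.79 ± 0.17, adjusted p = 0.0146). These Ubtf calls were lost on leaving out any of 5 and 3 single arrays. Against sirEGFP the fall did not pass, at -0.55 with oligo 1 (adjusted p = 0.107) and -0.61 with oligo 2 (adjusted p = 0.0771). All 8 fibroblast markers lay above the median gene, as did 1 of 7 epithelial, 2 of 6 macrophage and leukocyte and 1 of 5 endothelial markers, with Epcam (3.76), Ptprc (3.94), Adgre1 (3.28) and Pecam1 (4.80) among those below it. The log2 of the summed macrophage and leukocyte markers was 7.63 to 8.13 in Mock, 7.55 to 7.82 with sirEGFP, 8.09 to 8.41 with oligo 1 and 7.60 to 8.20 with oligo 2, and that of the endothelial markers was 6.91 to 7.42, 6.93 to 7.32, 6.83 to 7.06 and 7.31 to 7.48. Of single markers, Csf1r (macrophages) was higher with oligo 1 than with sirEGFP (0.83 ± 0.15, adjusted p = 0.00874) and Pdgfrb (fibroblasts) higher with oligo 2 than with sirEGFP (1.75 ± 0.34, adjusted p = 0.0126), while Lyz2 (macrophages) was lower with oligo 2 than in Mock (-0.75 ± 0.19, adjusted p = 0.0368). Oligo 2 minus oligo 1 was -0.80 for Csf1r, -1.29 for Lyz2, -0.67 for Thy1 (fibroblasts), 1.33 for Pdgfrb and 0.96 for Cdh5 (endothelium), each called. Between the siRNAs, the call was lost on leaving out any of 9 single arrays for Pdgfrb and 4 each for Thy1 and Cdh5. Those of Csf1r and Lyz2 held. Against sirEGFP it was lost for 1 array for Csf1r and 3 for Pdgfrb, and against Mock for 6 for Lyz2. The part of these markers in the results was not tested. RNA from a whole culture cannot tell fewer cells of a kind from less RNA per cell.

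Few of the listed genes passed the test with either siRNA. With oligo 1 against sirEGFP, 1 of 33 was called, Higd1a, which was lower. The same test called 2.47% of all genes, and 1.43% as lower. With oligo 2 against sirEGFP, 1 of 33 was called, Bnip3, also lower, against 2.26% of all genes in either direction and 0.742% lower. For the mean of both siRNAs against sirEGFP it was again Bnip3 alone, with 1.93% of all genes called and 0.722% called lower. Against Mock, 2 listed genes were called with oligo 1 (Pfkp higher, Higd1a lower; 2.75% of all genes) and 2 with oligo 2 (Hif1a higher, Bnip3 lower; 4.25% of all genes). Between the control groups, sirEGFP against Mock, limma called 0 of 33 and 0.0% of all genes, while 2 listed genes and 1247 of all genes had an unadjusted p under 0.05. In each comparison with a UBF siRNA, the call of 1 or 2 of 33 genes is a share of the same order as the background in either direction. The background called lower alone was smaller with oligo 2 (0.742%) and for the mean (0.722%), and the listed share there rests on 1 gene. The comparisons share their control arrays.

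**Figure D1:**
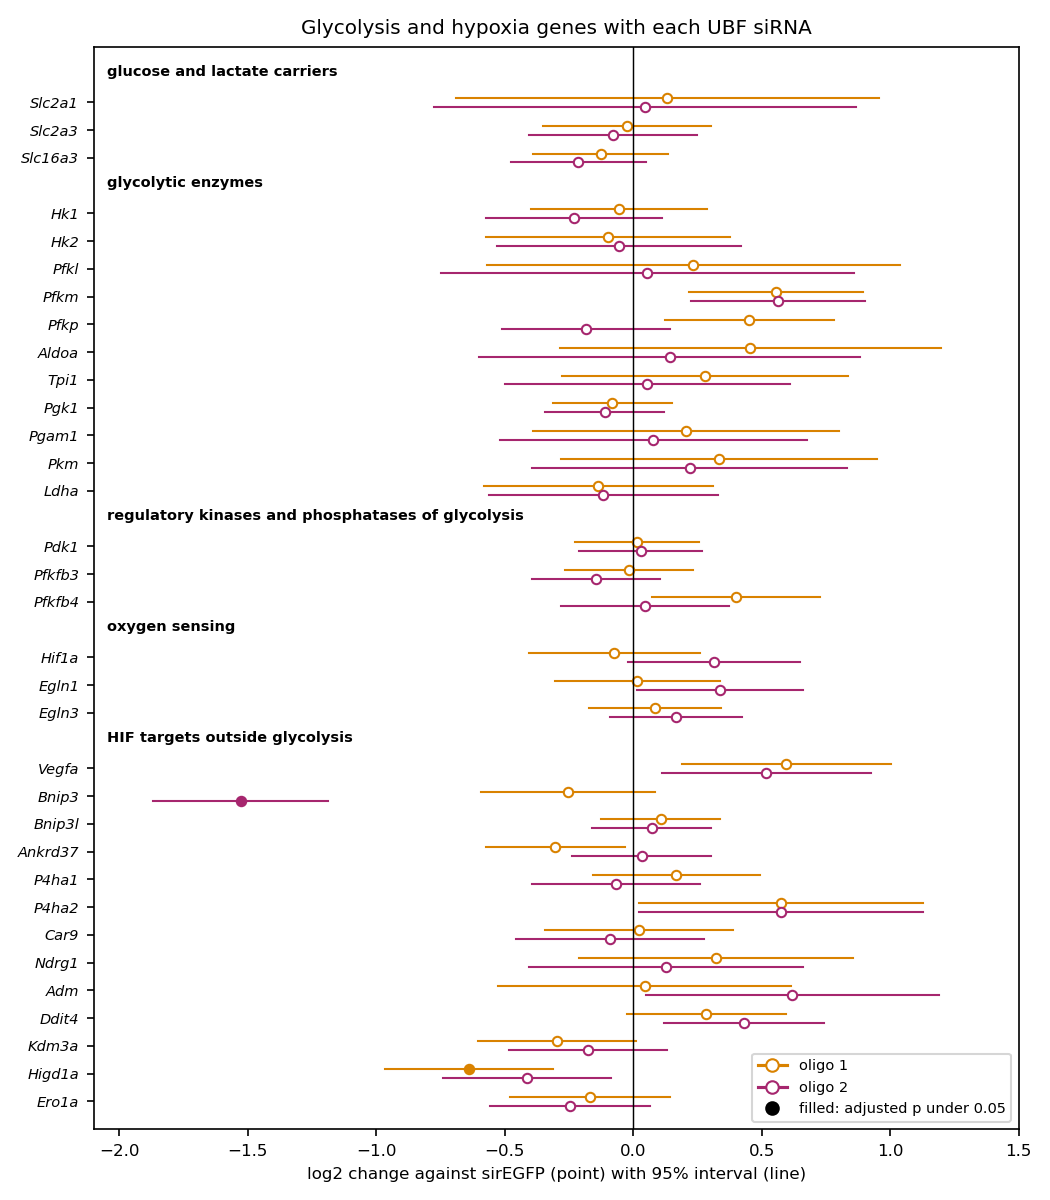
Change of each of the 33 measured genes with oligo 1 (orange) and oligo 2 (purple) against sirEGFP on the log2 scale, with its 95% interval as a line, grouped by role; filled points passed the limma test. Only Bnip3 with oligo 2 and Higd1a with oligo 1 are filled, and the longest intervals belong to Slc2a1, Pfkl and Aldoa.

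Bnip3, a protein of the outer mitochondrial membrane that marks mitochondria for autophagy, gave the largest difference. Its log2 level was 9.90, 10.01 and 9.70 in Mock and 9.49, 10.03 and 9.79 with sirEGFP. On the oligo 1 arrays it was 9.49, 9.77 and 9.29, and on the oligo 2 arrays 8.30, 8.35 and 8.07. All 3 oligo 2 arrays lay below every control array and every oligo 1 array, whereas oligo 1 overlapped with both control groups. Bnip3 fell by 1.53 ± 0.16 with oligo 2 against sirEGFP (limma adjusted p = 0.000102), 2.88-fold, and by 1.63 ± 0.16 against Mock (adjusted p = 5.33e-05). With oligo 1 the difference from sirEGFP was -0.25 ± 0.16 (95% interval -0.59 to 0.09, adjusted p = 0.568). The direct comparison of both siRNAs gave -1.27 ± 0.16 for oligo 2 minus oligo 1 (adjusted p = 0.00064). The value for the mean of both siRNAs, -0.89 ± 0.14 (adjusted p = 0.00426), therefore averages unequal responses. A position of the oligo 2 arrays wholly below the 6 control arrays was found for 3.85% of all genes. A second Bnip3 probe set gave -0.24 with oligo 1 and -1.21 with oligo 2, and no alternative or left-out array ended the calls with oligo 2.

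Bnip3l, the closest relative of Bnip3 and likewise a mitophagy receptor, did not share that difference. Its level ranged from 11.21 to 11.68 over the 12 arrays, with changes of 0.11 ± 0.11 for oligo 1 and 0.07 ± 0.11 for oligo 2 against sirEGFP (limma adjusted p = 0.781 and 0.872). Its 95% intervals, from -0.13 to 0.34 and from -0.16 to 0.30, do not reach the change of Bnip3 with oligo 2.

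Higd1a is a small hypoxia-induced protein of the inner mitochondrial membrane. On the probe set used, it was the one listed gene with all 6 knockdown arrays below all 6 control arrays. Such an order was shown by 0.692% of all genes, and the dimmer Higd1a probe set did not show it. Its log2 level was 8.44, 8.10 and 8.33 in Mock and 8.13, 8.21 and 8.34 with sirEGFP. On the oligo 1 arrays it was 7.25, 7.78 and 7.73, and on the oligo 2 arrays 8.01, 7.69 and 7.75. The gap between the highest knockdown array and the lowest control array was small beside the spread within groups. Higd1a fell by 0.64 ± 0.15 with oligo 1 against sirEGFP (limma adjusted p = 0.0392), and the difference with oligo 2 was -0.41 ± 0.15 (adjusted p = 0.231). Against Mock it fell by 0.70 ± 0.15 with oligo 1 (adjusted p = 0.0214) and differed by -0.47 ± 0.15 with oligo 2 (adjusted p = 0.108). The mean of both siRNAs against sirEGFP was -0.53 ± 0.13 (adjusted p = 0.058), and the siRNAs themselves differed by 0.23 ± 0.15 (95% interval -0.10 to 0.56, adjusted p = 0.575).

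The oligo 1 call of Higd1a was close to the threshold. Against sirEGFP its limma adjusted p became 0.0521 without Mock array 1, 0.0575 without Mock array 3, 0.134 without sirEGFP array 2, 0.168 without sirEGFP array 3, 0.156 without oligo 1 array 1, 0.0740 without oligo 1 array 3 and 0.0589 without oligo 2 array 3. Against Mock it became 0.106 without Mock array 1, 0.0749 without Mock array 3 and 0.0747 without oligo 1 array 1. With only the groups compared in the model it was 0.144 and 0.0776. The mean of both siRNAs against sirEGFP, in turn, passed with the replicate number as a block (0.0444), array weights (0.0109) and both control groups as control (0.00806). The Higd1a probe sets also disagreed with oligo 2. On the dimmer one the level was 7.93, 7.38 and 7.95 in Mock, 7.94, 7.77 and 7.99 with sirEGFP, 6.65, 7.25 and 6.82 after oligo 1, and 8.27, 8.04 and 8.15 after oligo 2. There the oligo 1 arrays again lay below all controls, by -0.99 from sirEGFP, but the oligo 2 arrays lay above all controls, by 0.26 from sirEGFP. The main tests of Higd1a rest on the brighter probe set. Which probe set follows the Higd1a transcript was not tested, so the direction for Higd1a with oligo 2 is uncertain.

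**Figure D2:**
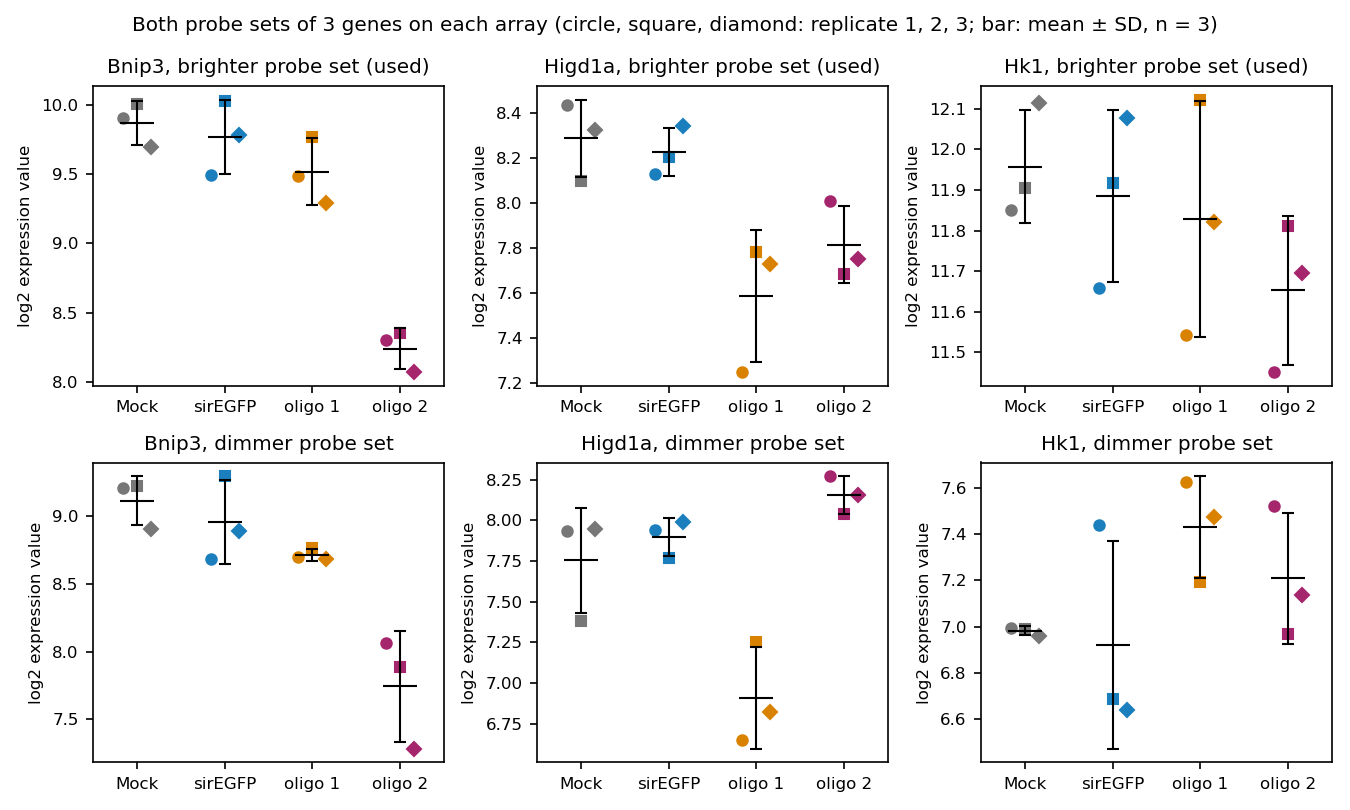
Log2 level of both probe sets of Bnip3, Higd1a and Hk1 on each of the 12 arrays by group, with the mean and SD of 3 arrays. The Bnip3 probe sets both drop with oligo 2 only, the dimmer Higd1a probe set puts oligo 2 above the controls, and the Hk1 probe sets differ in direction between knockdown and sirEGFP.

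The remaining 11 HIF targets outside glycolysis did not pass the test in any comparison. Vegfa, the vascular growth factor, singled out after its values were seen, read 8.22, 8.28 and 7.99 in Mock, 8.05, 7.58 and 7.67 with sirEGFP, 8.85, 8.04 and 8.20 after oligo 1, and 8.40, 8.08 and 8.38 after oligo 2. Its difference from sirEGFP was 0.60 ± 0.19 with oligo 1 and 0.52 ± 0.19 with oligo 2 (limma adjusted p = 0.139 and 0.224), and the knockdown arrays overlapped with Mock. P4ha2, a subunit of the prolyl hydroxylase of collagen, differed from sirEGFP by 0.58 ± 0.26 and 0.57 ± 0.26 (adjusted p = 0.347 and 0.362), while P4ha1, the other such subunit listed, differed by 0.17 ± 0.15 and -0.07 ± 0.15. Ddit4, an inhibitor of mTORC signalling, read 5.70, 5.42 and 5.17 in Mock, 5.56, 5.51 and 5.53 with sirEGFP, 5.75, 5.86 and 5.85 after oligo 1, and 6.24, 5.80 and 5.86 after oligo 2. It was the one listed gene with all 6 knockdown arrays above all 6 controls, as were 1.43% of all genes, and was singled out after its values were seen. Its differences from sirEGFP were 0.28 ± 0.15 and 0.43 ± 0.15 (adjusted p = 0.431 and 0.172). Adm, the vasodilator peptide adrenomedullin, differed by 0.04 ± 0.27 with oligo 1 and 0.62 ± 0.27 with oligo 2 (adjusted p = 0.978 and 0.332).

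The lower side of this group held Ero1a, the oxidase that forms disulphide bonds in the endoplasmic reticulum (listed under its older symbol Ero1l), at -0.17 ± 0.15 and -0.25 ± 0.15, and Kdm3a, a histone H3 demethylase, at -0.30 ± 0.14 and -0.18 ± 0.14 for oligo 1 and oligo 2 against sirEGFP. Ankrd37 stood at -0.30 ± 0.13 with oligo 1 and 0.03 ± 0.13 with oligo 2. Car9, the carbonic anhydrase often used as a marker of hypoxic cells, was at 0.02 ± 0.17 and -0.09 ± 0.17, and its level ranged only from 4.57 to 5.29, under the median gene's mean of 5.65. Ndrg1, a stress-induced cytoplasmic protein, was at 0.32 ± 0.25 and 0.13 ± 0.25. No adjusted p of these 5 genes against sirEGFP was below 0.299.

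**Figure D3:**
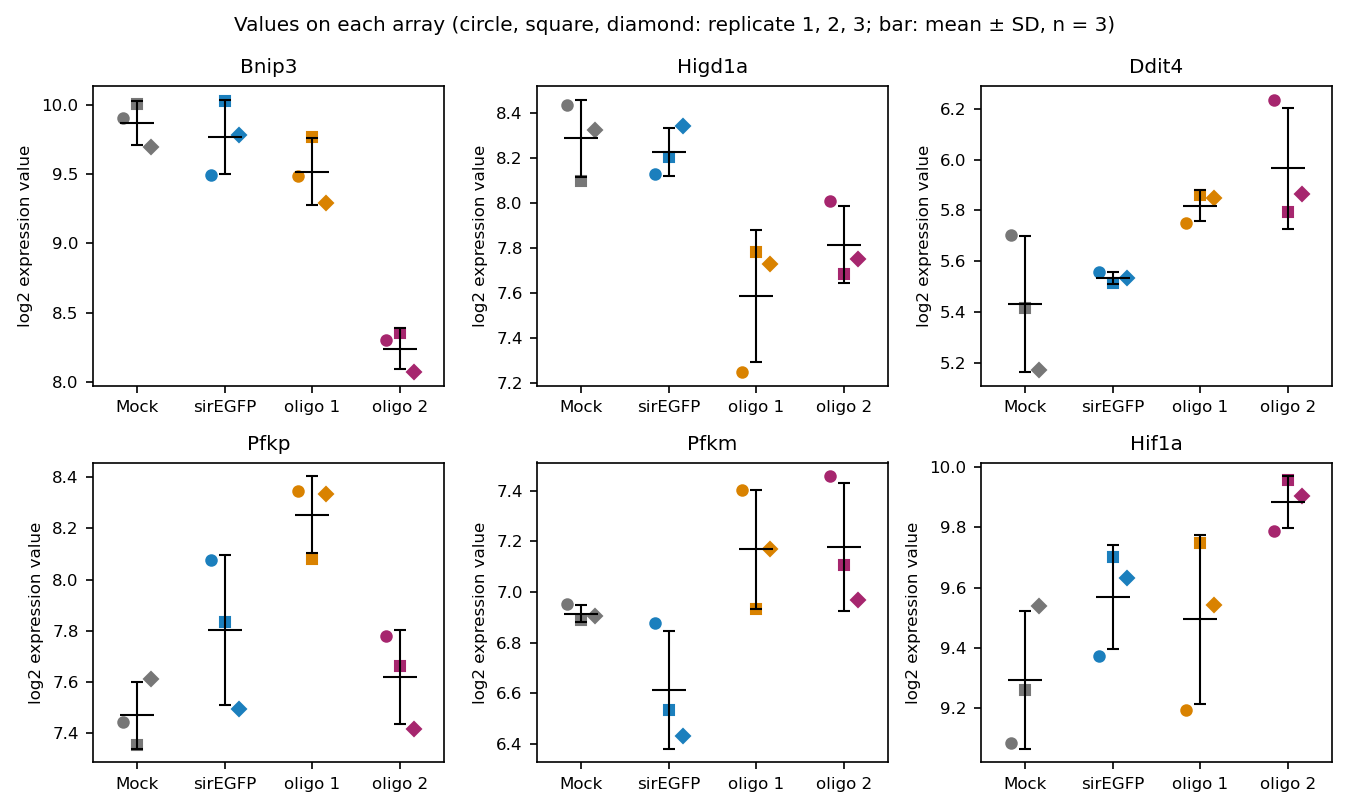
Log2 level of Bnip3, Higd1a, Ddit4, Pfkp, Pfkm and Hif1a on each of the 12 arrays, with the mean and SD of the 3 arrays of a group; each panel has its own axis. Bnip3 stands apart with oligo 2 at 8.07 to 8.35. On the probe sets used, Higd1a is lower and Ddit4 higher on all 6 knockdown arrays. The dimmer Higd1a probe set, not shown here, puts oligo 2 above the controls. In the other panels the 6 knockdown arrays overlap with the controls.

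Among the oxygen-sensing genes, Hif1a, the regulated alpha subunit, read 9.09, 9.26 and 9.54 in Mock and 9.38, 9.70 and 9.63 with sirEGFP. The oligo 1 arrays gave 9.19, 9.75 and 9.54, and the oligo 2 arrays 9.79, 9.96 and 9.90. The oligo 2 arrays were above all 6 controls and oligo 1 was not. The opposite order, all oligo 2 arrays below the 6 controls, was that of 3.85% of all genes. The share of all genes with oligo 2 above the controls was not counted. Hif1a rose by 0.59 ± 0.16 with oligo 2 against Mock (limma adjusted p = 0.0467), but its difference from sirEGFP was 0.31 ± 0.16 (adjusted p = 0.431). The call against Mock was lost without Mock array 1 (adjusted p = 0.223) or 2 (0.149), without sirEGFP array 2 (0.0600) or 3 (0.0592), without oligo 1 array 3 (0.0691), and without oligo 2 array 1 (0.0858), 2 (0.155) or 3 (0.149). It was also lost after centring each array on its median (0.0702) and after quantile normalization (0.0554). These are transcript levels, and the amount of the protein, on which oxygen acts, was not measured.

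Egln1, the main prolyl hydroxylase acting on HIF, read 8.06, 8.20 and 8.54 in Mock, 8.42, 8.48 and 8.31 with sirEGFP, 8.64, 8.39 and 8.23 after oligo 1, and 8.86, 8.84 and 8.51 after oligo 2. Its difference from sirEGFP was 0.02 ± 0.15 with oligo 1 and 0.34 ± 0.15 with oligo 2 (limma adjusted p = 0.986 and 0.357), and the oligo 2 arrays overlapped with Mock. Egln3, a hydroxylase that is itself a HIF target, read 5.57, 5.81 and 5.78 in Mock, 5.68, 5.88 and 5.78 with sirEGFP, 5.96, 5.87 and 5.77 after oligo 1, and 6.13, 5.88 and 5.84 after oligo 2. It differed by 0.09 ± 0.12 and 0.17 ± 0.12 (adjusted p = 0.861 and 0.655). Its oligo 2 arrays lay above Mock by a small margin and overlapped with sirEGFP.

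Of the 11 glycolytic enzymes measured, 0 passed the limma test against sirEGFP with either siRNA, and 2 with oligo 1 and 1 with oligo 2 had an unadjusted p under 0.05, as did 13.4% and 12.9% of all genes. Phosphofructokinase, which catalyses the committed step of glycolysis, has 3 subunit genes, and of the enzymes Pfkm, the muscle-type subunit, had the largest difference from sirEGFP with each siRNA. It read 6.95, 6.89 and 6.91 in Mock, 6.88, 6.53 and 6.43 with sirEGFP, 7.40, 6.93 and 7.17 after oligo 1, and 7.46, 7.11 and 6.97 after oligo 2. All 6 knockdown arrays were above all 3 sirEGFP arrays, but oligo 1 array 2 fell inside the range of Mock. The share of all genes with the 6 knockdown arrays above sirEGFP was not counted. The mean of both siRNAs against sirEGFP was 0.56 ± 0.14 (limma adjusted p = 0.0503), just short of the threshold, with 0.56 ± 0.16 for each siRNA alone (adjusted p = 0.0884 and 0.0849). The mean passed in 8 of 22 alternatives: quantile normalization (adjusted p = 0.0362), without the dimmest genes (0.0436), the replicate number as a block (0.00918), array weights (0.00296), both control groups as control (0.0490), without sirEGFP array 1 (0.0261), without oligo 1 array 2 (0.0198), and without oligo 1 arrays 1 and 2 and sirEGFP array 1 together (0.0216). In the others its adjusted p ran up to 0.283, reached without sirEGFP array 3.

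Pfkp, the platelet-type subunit, read 7.44, 7.35 and 7.61 in Mock and 8.08, 7.83 and 7.50 with sirEGFP. The oligo 1 arrays gave 8.35, 8.08 and 8.34, and the oligo 2 arrays 7.78, 7.66 and 7.42. The oligo 1 arrays were above every other array, but oligo 1 array 2 (8.081) and sirEGFP array 1 (8.077) were nearly equal. The share of all genes with such an order was not counted. Oligo 2 overlapped with both control groups. Pfkp rose by 0.78 ± 0.15 with oligo 1 against Mock (limma adjusted p = 0.0117) and was 0.45 ± 0.15 from sirEGFP (adjusted p = 0.170). Between the siRNAs it was lower with oligo 2 by -0.64 ± 0.15 (adjusted p = 0.0316), 1 of 2 listed genes, with Bnip3, called in that comparison, which called 3.67% of all genes. The call against Mock was lost without Mock array 1 (adjusted p = 0.0526) or 2 (0.0599) or oligo 1 array 3 (0.0649). The call between the siRNAs was lost without oligo 1 array 1 (0.0899) or 3 (0.128) and without oligo 2 array 2 (0.0851) or 3 (0.160), after median centring (0.0571) and with only the groups compared (0.0566). Pfkl, the liver-type subunit, spanned 5.82 to 7.54, with differences from sirEGFP of 0.23 ± 0.38 and 0.05 ± 0.38.

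Further down the pathway, Pkm, the pyruvate kinase of most tissues, read 10.37, 10.51 and 10.44 in Mock, 10.92, 10.01 and 9.90 with sirEGFP, 11.19, 9.89 and 10.75 after oligo 1, and 10.73, 10.23 and 10.52 after oligo 2. Its oligo 1 arrays lay both above and below every Mock array. The mean of both siRNAs against sirEGFP was 0.28 ± 0.25 (limma adjusted p = 0.744). For Aldoa, the aldolase that cleaves fructose bisphosphate, the differences were 0.46 ± 0.35 with oligo 1 and 0.14 ± 0.35 with oligo 2, and for Tpi1, which interconverts the triose phosphates, 0.28 ± 0.26 and 0.05 ± 0.26. Pgam1, the phosphoglycerate mutase, stood at 0.21 ± 0.28 and 0.08 ± 0.28, Ldha, the lactate dehydrogenase subunit induced by HIF, at -0.14 ± 0.21 and -0.12 ± 0.21, and Hk2, the inducible hexokinase, at -0.10 ± 0.22 and -0.05 ± 0.22. Pgk1, the phosphoglycerate kinase, was the most even enzyme, at -0.08 ± 0.11 and -0.11 ± 0.11. Its probe set and one of the other 2 that name Pgk1 held the same values on every array, as did 2 of the 3 for Pgam1, so signal from near-identical copies of these genes cannot be told apart.

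Hk1, the constitutive hexokinase, was measured at -0.06 ± 0.16 and -0.23 ± 0.16 on the probe set used. That probe set rests on 1 sequence record, which it shares with 16 probe sets annotated jointly to Hk1 and Rpl17, a ribosomal protein gene. Its mean of 11.83 lay within the means of those joint probe sets, 11.58 to 12.87. A separate Hk1 probe set had a mean of 7.14. It gave 0.51 with oligo 1 and 0.29 with oligo 2 against sirEGFP, the opposite direction, so the direction for Hk1 is uncertain. Whether the probe set used follows Hk1 or Rpl17 was not tested. It stands for Hk1 in the medians, levels and counts of the 11 enzymes.

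The enzymes were then set against the HIF targets outside glycolysis. The median change of the 11 enzymes against sirEGFP was 0.23 with oligo 1 and 0.05 with oligo 2, with 7 and 6 of them above 0. The 13 HIF targets had medians of 0.04 and 0.03, with 8 and 7 above 0, and the median of all genes was 0.02 and -0.01. Against Mock, the enzymes' medians were 0.02 and -0.08. The enzymes' median with oligo 1 was 0.01 without oligo 1 array 1, 0.04 without sirEGFP array 3, 0.48 without sirEGFP array 1 and 0.54 without oligo 1 array 2. With oligo 2 it was -0.12 without oligo 2 array 1, -0.06 without sirEGFP array 2, -0.15 without sirEGFP array 3 and 0.26 without sirEGFP array 1. The HIF targets' median for the mean of both siRNAs, 0.05, was -0.06 without sirEGFP array 3.

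The enzymes varied widely between arrays of the same group. Their level, as the mean over the 11 enzymes of the log2 value minus each enzyme's mean of the 12 arrays, was -0.07, 0.11 and -0.03 in Mock and 0.27, -0.15 and -0.36 with sirEGFP. On the oligo 1 arrays it was 0.47, -0.32 and 0.20, and on the oligo 2 arrays 0.19, -0.14 and -0.17. The lowest and highest of these lie within the sirEGFP and oligo 1 groups, and all 4 groups overlap. The same measure for the 13 HIF targets stayed between -0.10 and 0.12 on all arrays, with positive and negative genes in each. The enzymes minus the HIF targets came to -0.0041 ± 0.12 (SD, n = 3) in Mock, -0.07 ± 0.27 with sirEGFP, 0.09 ± 0.30 with oligo 1 and -0.02 ± 0.10 with oligo 2, so the group means differed by less than the spread within the sirEGFP and oligo 1 groups.

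**Figure D4:**
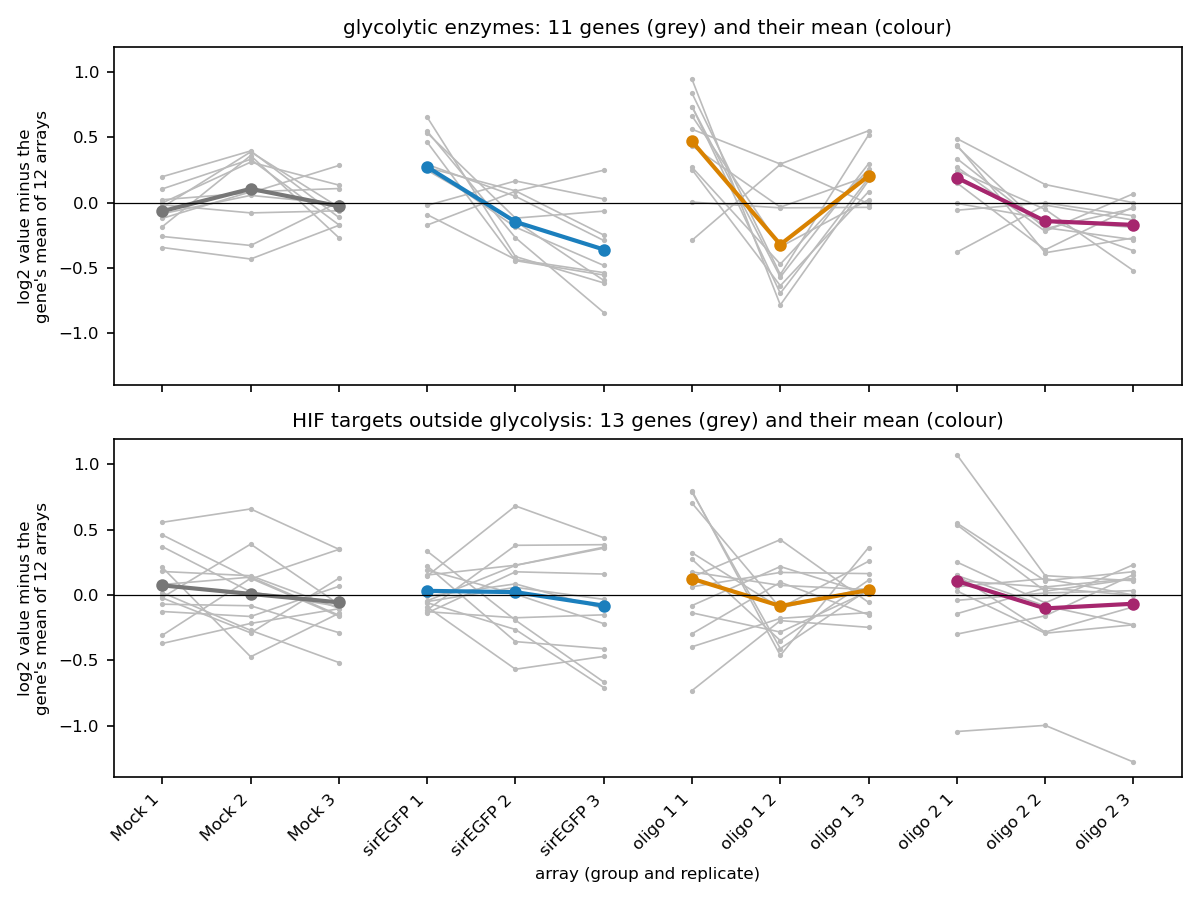
Level of each of the 11 glycolytic enzymes (top) and 13 HIF targets outside glycolysis (bottom) on the 12 arrays, as log2 value minus the gene's own mean, with the mean of the genes in colour; lines join arrays of a group and stand for no order. The enzymes' mean runs from -0.36 to 0.47, its ends on sirEGFP array 3 and oligo 1 array 1, while that of the HIF targets stays between -0.10 and 0.12.

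Most enzymes moved together in this within-group variation. On sirEGFP array 1, 9 of 11 enzymes were higher than on sirEGFP array 3, with a median difference of 0.60, while 43.8% of all genes were higher. On oligo 1 array 1, 10 of 11 were higher than on oligo 1 array 2, with a median difference of 0.89, against 48.2% of all genes. On oligo 2 array 1, 9 of 11 were higher than on oligo 2 array 2, with a median difference of 0.35, against 47.4% of all genes. Hk1 was an exception in each pair, and Pgk1 in the sirEGFP and oligo 2 pairs. The separate Hk1 probe set did follow the other enzymes, at 7.44 and 6.64 on sirEGFP arrays 1 and 3 and at 7.63 and 7.19 on oligo 1 arrays 1 and 2. These pairs were picked after the values were seen and carry no test. The median within-group SD was 0.33 for the enzymes, 0.20 for the HIF targets and 0.17 for all genes (0.18 for genes brighter than the median). The widest were Pfkl at 0.61, Aldoa at 0.56, Pkm at 0.45 and Pgam1 at 0.44, and the narrowest was Pgk1 at 0.08. The leading axis of within-group variation over all genes held 41.5% of that variance. At one end it had sirEGFP array 1 (-0.44) and oligo 1 array 1 (-0.50), followed by oligo 2 array 1 (-0.28). At the other end it had oligo 1 array 2 (0.53) and sirEGFP array 3 (0.31). Array 1 of each siRNA group thus scored below 0. Array 2 scored 0.14, 0.53 and 0.18 with sirEGFP, oligo 1 and oligo 2, and array 3 scored 0.31, -0.03 and 0.10. Mock arrays 1 to 3 scored -0.01, -0.13 and 0.14. The part of this axis in the enzymes' values was not tested.

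The carriers showed no call, and 0 of 3 had an unadjusted limma p under 0.05 against sirEGFP. Slc2a1, the glucose carrier GLUT1 of growing fibroblasts, read 9.18, 9.42 and 8.69 in Mock, 9.92, 8.79 and 8.30 with sirEGFP, 9.83, 8.30 and 9.26 after oligo 1, and 9.43, 8.74 and 8.97 after oligo 2. It followed the enzymes' pattern, high on array 1 of each siRNA group, and its within-group SD of 0.62 was above that of 99.9% of all genes. Its intervals against sirEGFP, -0.69 to 0.95 with oligo 1 and -0.78 to 0.87 with oligo 2, were the widest of the 33 genes. Slc2a3, a glucose carrier of high affinity, read 4.72, 4.60 and 4.58 in Mock, 4.58, 5.02 and 4.89 with sirEGFP, 4.57, 5.09 and 4.75 after oligo 1, and 4.71, 4.93 and 4.60 after oligo 2, and the mean of both siRNAs differed from sirEGFP by -0.05 ± 0.13 (limma adjusted p = 0.939). Slc16a3, the lactate exporter MCT4, read 5.83, 6.14 and 6.0 in Mock, 6.11, 6.12 and 6.07 with sirEGFP, 5.96, 6.08 and 5.87 after oligo 1, and 5.74, 6.08 and 5.82 after oligo 2. Its difference was -0.17 ± 0.11 (adjusted p = 0.566).

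The regulatory kinases showed none either. With oligo 1 against sirEGFP, 1 of 3 had an unadjusted limma p under 0.05, as did 13.4% of all genes. That gene was Pfkfb4, whose mean of 4.92 lay under the median gene's mean of 5.65. Pfkfb4, which sets the level of an activator of phosphofructokinase, read 4.69, 4.76 and 4.57 in Mock, 4.76, 4.95 and 4.83 with sirEGFP, 5.67, 4.97 and 5.10 after oligo 1, and 4.87, 4.90 and 4.91 after oligo 2. The oligo 1 arrays lay above all others, by 0.40 ± 0.15 from sirEGFP (limma adjusted p = 0.237) and 0.58 ± 0.15 from Mock (adjusted p = 0.0612). However, oligo 1 array 2 (4.97) and sirEGFP array 2 (4.95) were nearly equal, and the share of all genes with such an order was not counted. Pfkfb3, its hypoxia-induced relative, read 5.80, 5.66 and 5.80 in Mock, 5.90, 5.83 and 5.66 with sirEGFP, 5.71, 5.78 and 5.85 after oligo 1, and 5.78, 5.68 and 5.49 after oligo 2, and the mean of both siRNAs differed by -0.08 ± 0.10 (adjusted p = 0.838). Pdk1, the kinase that inactivates pyruvate dehydrogenase, was even, with differences of 0.02 ± 0.11 and 0.03 ± 0.11 and a range from 7.03 to 7.30 over the 12 arrays.

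Beyond the listed genes, 116 of 125 other genes of the same pathways were measured. Against Mock, 10 were called with oligo 1 (9 higher, 1 lower) and 13 with oligo 2 (11 higher, 2 lower). The same tests called 2.75% and 4.25% of all genes. Of the genes called against Mock, 5 and 9 were among 44 other HIF targets, and 0 and 1 among 13 other genes of the HIF system. Against sirEGFP, 6 were called with oligo 1 (4 higher, 2 lower), 5 with oligo 2 (3 higher, 2 lower) and 7 for the mean of both siRNAs (3 higher, 4 lower), where the same tests called 2.47%, 2.26% and 1.93% of all genes. Among 44 other glycolysis and pyruvate genes, Slc16a1, the lactate carrier MCT1, was lower with oligo 1 (-0.47 ± 0.11, limma adjusted p = 0.0311). In the mean of both siRNAs it was -0.39 ± 0.09 (adjusted p = 0.0430), and Eno3, the muscle enolase, was higher by 0.72 ± 0.17 (adjusted p = 0.0443). Of 10 pentose phosphate pathway genes, both calls with a single siRNA were of ribose phosphate pyrophosphokinases. Prps1 was lower with oligo 1 (-0.56 ± 0.13, adjusted p = 0.0344) and at -0.47 ± 0.13 with oligo 2 (adjusted p = 0.0798). Prps2 was higher with oligo 2 (0.55 ± 0.12, adjusted p = 0.0244) and at -0.19 ± 0.12 with oligo 1 (adjusted p = 0.546). None of 13 other genes of the HIF system passed against sirEGFP, with 0, 6 and 3 at an unadjusted limma p under 0.05 for oligo 1, oligo 2 and their mean, a level reached by 13.4%, 12.9% and 13.2% of all genes. These calls were each lost when some single arrays were left out, 4 for Slc16a1 and 5 for Prps1 with oligo 1, 5 for Prps2 with oligo 2, and 11 for Slc16a1 and 9 for Eno3 in the mean.

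Among 44 other HIF targets, 3 were called with each siRNA against sirEGFP, beside 2.47% and 2.26% of all genes. Cp, the ferroxidase ceruloplasmin, rose by 1.32 ± 0.18 with oligo 1 and 2.28 ± 0.18 with oligo 2 (limma adjusted p = 0.00176 and 1.07e-05). Tfrc, the transferrin receptor that brings iron into cells, fell by 1.34 ± 0.18 with oligo 2 (adjusted p = 0.000986) and stood at -0.08 ± 0.18 with oligo 1. Fam162a, a mitochondrial protein induced by hypoxia, fell by 0.69 ± 0.12 with oligo 2 (adjusted p = 0.00509) and stood at -0.21 ± 0.12 with oligo 1. Unlike for Bnip3, all its oligo 1 arrays (10.93 to 11.15) also lay below every control array (lowest 11.23). An order with all 6 knockdown arrays below all 6 control arrays was shown by 0.692% of all genes. The mean of both siRNAs was called for Fam162a (-0.45 ± 0.10, limma adjusted p = 0.0359), a call lost on leaving out any of 8 single arrays. Oligo 2 minus oligo 1 was -1.26 ± 0.18 for Tfrc and -0.48 ± 0.12 for Fam162a (adjusted p = 0.00122 and 0.0335), the direction also seen for Bnip3. Hmox1, the haem oxygenase, and Slc6a8, the creatine carrier, rose with oligo 1 by 1.56 ± 0.32 and 0.91 ± 0.22 (adjusted p = 0.0168 and 0.0369), calls that were lost on leaving out any of 4 and 9 single arrays, while those of Cp, Tfrc and Fam162a with oligo 2 held whichever single array was left out. Of 7 glucose-sensing factors and their targets, Txnip, an inhibitor of glucose uptake, was called in both, higher by 1.60 ± 0.20 and 2.38 ± 0.20 (adjusted p = 0.000956 and 1.35e-05).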

How the data were processed

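The authors deposited 1 table of log2 expression values with 35512 probe sets and 12 arrays; its range shows the log scale. How the authors corrected, summarised and normalized the signals is not given in the sources used here. Limma appears in the submitters' processing notes, without version. Signal over background could not be judged, and precision is limited by the 3 arrays per group.

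Of the probe sets, 21789 had 1 gene symbol in the platform annotation, 1621 several and 12102 none. Symbols were updated through Entrez identifiers for 21698. Each of the 19938 genes took the probe set with 1 symbol and the highest mean; 7 listed genes had several. No filter was applied.

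A model with 1 coefficient per group over all 12 arrays was fitted with limma 3.58.1 (R 4.3.3; lmFit, eBayes; 8 residual and 6.82 prior degrees of freedom), two-sided, for 7 comparisons, and tested on simulated data. Errors of changes are SE. Values are given on every array for genes called in any comparison and for the 2 genes of each role with the smallest p in the mean of both siRNAs against sirEGFP. Of the other pathway genes, those called against sirEGFP may be named.

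The genes and lists were chosen with earlier results of these data known, so no p is given for a list. Alternatives were median centring, quantile normalization, leaving out the dimmest 25% of genes, the mean of all probe sets, the replicate block, array weights, only the groups compared, the mean of Mock and sirEGFP as control, and leaving out each array. Leaving out 3 arrays and taking the dimmest probe set were chosen after seeing the data.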

Additional observations from a re-analysis of the deposited data

Results flagged for a closer look

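The effects of the siRNAs differed by the test of oligo 2 against oligo 1 (limma adjusted p under 0.05) for 8 of the listed and other pathway genes named above. That test called 2 of 33 listed genes and 10 of 116 other pathway genes, beside 3.67% of all genes. Other pathway genes called there but not named above are left out. Among the listed genes the difference, oligo 2 minus oligo 1, was -1.27 for Bnip3 and -0.64 for Pfkp. Among the other pathway genes named above it was 0.95 for Cp, -0.48 for Fam162a, -1.27 for Hmox1, 0.74 for Prps2, -1.26 for Tfrc and 0.78 for Txnip. The call between the siRNAs was lost on leaving out any of 6 single arrays for Hmox1 and 5 for Fam162a. For Txnip and Pfkp it was lost for 4 each and for Cp for 1. For Bnip3, Prps2 and Tfrc it held whichever single array was left out. Cp and Txnip rose with both siRNAs and more with oligo 2, whereas for Bnip3, Pfkp, Hmox1, Prps2, Tfrc and Fam162a only 1 of the siRNAs gave a call against sirEGFP or Mock. The sequences of the siRNAs were not used here.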

How the results depend on the processing

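The count of listed genes called moved as follows, with the share of all genes called in brackets. With the replicate block it was 3 for oligo 1, 2 for oligo 2 and 4 for their mean against sirEGFP (4.4%, 3.88%, 3.96%). Same-numbered arrays correlated at -0.237 to 0.551 after group means were removed, not all above 0.1. Among the siRNA groups the values were 0.551, 0.548 and 0.388 for array 1 and 0.294, 0.24 and 0.294 for array 2. Those of array 3 were -0.08, 0.182 and 0.115. Not every array correlated best with its own number, as sirEGFP array 3 reached 0.492 with oligo 1 array 2. The numbers were therefore not taken to pair the arrays, and the main model leaves out what same-numbered arrays share. With array weights, which gave oligo 1 array 3 a weight of 8.92, it was 10, 3 and 6 against sirEGFP (19.1%, 5.92%, 9.78%), 5 and 4 for oligo 1 and oligo 2 against Mock (13.5%, 8.08%), and 4 between the siRNAs (15.9%). With only the groups compared it was 0 for oligo 1 against sirEGFP (0.507%), 1 for oligo 1 against Mock (1.38%) and 1 between the siRNAs (1.91%). With the mean of Mock and sirEGFP as control it was 2, 2 and 4 (3.78%, 4.91%, 4.93%). Median centring gave 1 for oligo 2 against Mock (3.47%) and 1 between the siRNAs (3.58%), quantile normalization 2 for the mean (1.78%) and 1 for oligo 2 against Mock (4.28%), and leaving out dim genes 3 for the mean (2.9%). Without oligo 1 arrays 1 and 2 and sirEGFP array 1, chosen after seeing the data, it was 0, 4 and 5 against sirEGFP (1.28%, 5.26%, 3.98%), 0 for oligo 1 against Mock (0.727%) and 1 between the siRNAs (1.06%), and the enzymes' median with oligo 1 was 0.52; the lone oligo 1 array is then assumed to vary like the others. Leaving out single arrays gave 0 to 4, 1 to 2 and 1 to 5 against sirEGFP (0.777 to 4.33%, 0.993 to 3.14%, 0.542 to 3.62%), 0 to 3 and 1 to 4 against Mock (1.22 to 3.38%, 1.54 to 5.24%), and 1 to 2 between the siRNAs (1.65 to 4.18%). It moved the enzymes' median with oligo 1 between 0.0056 and 0.54 and the HIF targets' median for the mean between -0.056 and 0.095. Bnip3 with oligo 2 kept its direction and its call in all 22 alternatives against sirEGFP. Slc2a3 in the mean turned to 0.045 with both controls and ranged from -0.18 to 0.043 over left-out arrays, and Pfkfb3 turned to 0.0033 without the 3 arrays. The cause was not tested.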
